A study of Mus musculus with 6 samples.

Results

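The genes described here are 10 immediate early genes of the mouse: the AP-1 subunit genes Fos, Fosb, Fosl2, Jun, Junb and Jund, the EGR factor genes Egr1 and Egr2, and the immediate early genes Ier2 and Nr4a1. They were taken by NCBI gene number from a count table of 24885 rows, and all 10 have a row. The libraries came from lymphoma cells of the Eµ-Myc mouse, in which a Myc transgene under an immunoglobulin enhancer drives tumours of the B lineage. The cells carried Cre-ERT2 and both copies of the miR-17~92 microRNA cluster as floxed (fl/fl) alleles. In 3 libraries (fl) the cluster was labelled floxed. The other 3 (del) came from cells that had been cultured with 250 nM 4-hydroxytamoxifen (4-OHT), which activates the Cre, and then subcloned to isolate cells without the cluster. All cells had grown on irradiated Ink4a-null mouse embryo fibroblasts for 48 hours before RNA was taken. Deletion of the cluster, 4-OHT and subcloning cannot be told apart in this design. The labels do not tie the 3 libraries of a group to separate cultures or clones, so p-values measure the spread between these libraries, which may be technical.

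Immediate early genes are transcribed within minutes of a growth factor, antigen receptor or stress signal, without new protein synthesis, because the factors at their promoters (SRF with its ternary complex partners, and CREB) are already present and are phosphorylated by kinases of the MAP kinase cascades. FOS and JUN proteins pair through leucine zippers into AP-1, which binds DNA, and JUN proteins can also pair with each other or with ATF and MAF proteins. JUNB and JUND are often weaker activators than JUN and can oppose it. In B cells these genes respond to the antigen receptor, and EGR1 and EGR2 are zinc finger factors downstream of ERK. Most of their mRNAs decay quickly, in part through AU-rich elements in the 3' untranslated region (UTR).

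The libraries were sequenced from the 3' ends of poly(A) RNA and held between 6554423 and 9580630 counts for fl and between 2121796 and 3738720 for del, on average 2.65 times as many in fl. Depth and group go together. Levels are given as CPM, counts divided by the TMM-scaled library size in units of 1000000, and changes as log2 fold changes of del minus fl with their standard errors. A gene is called where its adjusted p in edgeR's quasi-likelihood test was under 0.05. The cell type markers differed widely between the groups. Summed B cell markers (10 genes) were at 51.1 to 59.2 CPM in fl and 1216 to 1408 CPM in del, with 9 of 9 tested markers higher. The B cell markers that define the labelled cell type were thus far lower in fl, but not all absent there: the adaptor gene Blnk was at 22.8 to 28.3 CPM in fl and 156 to 182 CPM in del, whereas the B lineage factor gene Ebf1 was at 0 to 0.56 CPM and 96.5 to 145 CPM. Ms4a1 had at most 2 counts in any library. Summed myeloid markers were at 429 to 476 CPM in fl and 1951 to 2031 CPM in del, with 6 of 8 tested markers higher and 2 lower. Most of the fl sum was Fcer1g, at 371 to 422 CPM in fl and 591 to 606 CPM in del, while Lyz2 was at a mean of 0.371 and 454 CPM, Itgam at 3.07 and 341 CPM, and Mpo at 0 in all libraries. Summed fibroblast markers (the feeder layer was fibroblasts) were at 1.49 to 4.69 CPM in fl and 7.90 to 17.1 CPM in del, with Fn1 higher of 2 tested and Lum at 0 throughout. Summed T and NK cell markers were at 38.6 to 42.7 CPM and 99.5 to 121 CPM, with 1 of 3 tested markers higher and 2 lower. Cd2 rose from a mean of 13.1 to 105 CPM, Cd5 fell from 23.3 to 3.30 CPM, Lck had 23 to 30 counts in each fl library and 0 in del, and Cd3e was at 0 throughout. The 4 erythroid markers were at 0. The part of these differences in the changes of the immediate early genes was not tested. Fewer cells of a type and less RNA per cell cannot be told apart in such bulk libraries.

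The immediate early genes did not move as 1 block. Of the 9 that had enough counts to be tested, 3 rose in del (Jun, Fosl2 and Fosb), 5 fell (Ier2, Junb, Egr1, Fos and Jund) and Nr4a1 was not called. The count of higher genes was 1 in libraries thinned to the shallowest and 2 without fl replicate 1, fl replicate 3, del replicate 1 or del replicate 3, and with a trend on transcript length removed 1 was higher and 3 were lower. Of all 10260 genes tested, 32.5% were higher and 32.6% lower in del, so that a call in either direction was common in these data. For 8 of the 9 genes the 2 groups of values were fully separate, as they were for 69.9% of all genes tested. The median log2 fold change of the 9 was -0.73, and that of all tested genes was 0.00. Egr2 had 2 to 20 counts a library and did not pass the filter on low counts.

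**Figure D1:**
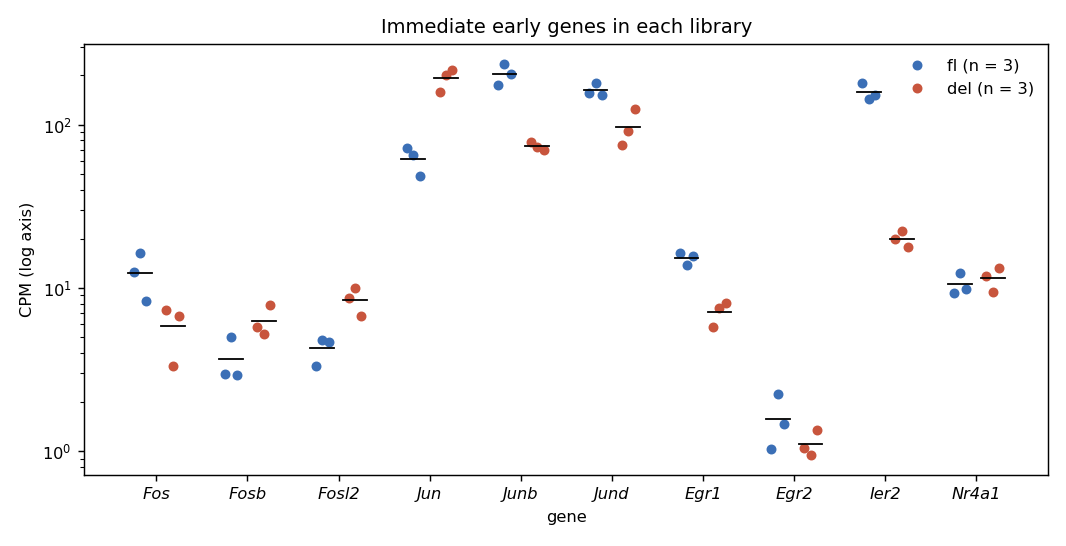
CPM of the 10 genes in each of the 6 libraries on a log axis, with fl in blue, del in red and a bar at each group's mean (n = 3 libraries per group). Ier2 drops from 144 to 180 CPM in fl to 17.8 to 22.3 CPM in del, Jun lies higher in all 3 del libraries, and the groups overlap for Nr4a1 and Egr2.

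The JUN genes went in opposite directions. Jun, the gene of the founding JUN subunit, lies on chr4:95049036-95052222 (GRCm38) and was at 71.9, 64.7 and 48.1 CPM in fl and at 159, 201 and 216 CPM in del. Every del library stood far above every fl library, and the log2 fold change was 1.64 ± 0.19 (adjusted p = 7.07e-05, edgeR), a 3.11-fold rise. Of all tested genes 11.2% rose as much or more. Junb, whose protein often opposes JUN, lies on chr8:84976909-84978748 and was at 174, 236 and 205 CPM in fl and at 78.0, 72.5 and 70.3 CPM in del. The del values lay close together and far below fl, with a log2 fold change of -1.48 ± 0.15 (adjusted p = 3.91e-05, edgeR). Jund, the JUN gene that cells usually express without a stimulus, lies on chr8:70697739-70700616 and was at 156, 179 and 151 CPM in fl and at 74.8, 91.4 and 125 CPM in del. The groups did not overlap, although del replicate 3 came near to fl, and the log2 fold change was -0.73 ± 0.19 (adjusted p = 0.00821, edgeR). With the length trend removed it was -0.35 and no longer called (adjusted p = 0.148).

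Transcripts of other genes overlap the JUN genes on the opposite strand. The libraries were strand-specific per the labels, but the strand setting of the counting was not given in the sources used here. Prdx2, a peroxiredoxin gene opposite part of the GENCODE span of Junb, was at 172 to 193 CPM in fl and 82.0 to 105 CPM in del, a log2 fold change of -1.0 (adjusted p = 2.68e-04, edgeR), and its part in the Junb counts was not tested. The antisense transcripts Junos at Jun and Gm11175 at Jund had no row under these symbols among the counts, so their levels cannot be given.

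The FOS genes were split as well, with Fos lower and Fosl2 and Fosb higher in del. Fos, the prototype immediate early gene (chr12:85473890-85477274), was at 12.5, 16.4 and 8.36 CPM in fl and at 7.37, 3.32 and 6.76 CPM in del. The groups came close, with fl replicate 3 just above del replicate 1, and the value of del replicate 2 rested on 7 counts (exact 95% Poisson interval 1.33 to 6.84 CPM, counting error only). The log2 fold change was -1.03 ± 0.32 (adjusted p = 0.0196, edgeR). Leaving out fl replicate 2, the highest library, ended the call (-0.77, adjusted p = 0.0645), and so did leaving out del replicate 2, the lowest (-0.83, adjusted p = 0.0564).

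Fosl2 encodes FRA2, a FOS protein without the strong activation domain of FOS, and lies on chr5:32136472-32157840. It was at 3.33, 4.81 and 4.69 CPM in fl and at 8.69, 9.95 and 6.76 CPM in del, all del values above all fl values. The log2 fold change was 0.96 ± 0.25 (adjusted p = 0.00706, edgeR), and the call was lost with the length trend removed (0.18, adjusted p = 0.545) and in libraries thinned to the depth of the shallowest (0.72, adjusted p = 0.145). Fosb (chr7:19302696-19310118) encodes the full-length FOSB protein and a shorter spliced form, which counts at the 3' end do not separate. It was at 2.98, 5.04 and 2.93 CPM in fl and at 5.79, 5.21 and 7.84 CPM in del. The lowest del value and the highest fl value almost touched, and the log2 fold change was 0.79 ± 0.30 (adjusted p = 0.0416, edgeR). It did not stay called when fl replicate 1 (0.65, adjusted p = 0.111), fl replicate 3 (0.67, adjusted p = 0.109), del replicate 1 (0.87, adjusted p = 0.0695) or del replicate 3 (0.59, adjusted p = 0.183) was left out. Nor did it in thinned libraries (0.57, adjusted p = 0.244) or with upper-quartile scaling (0.66, adjusted p = 0.0753).

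**Figure D2:**
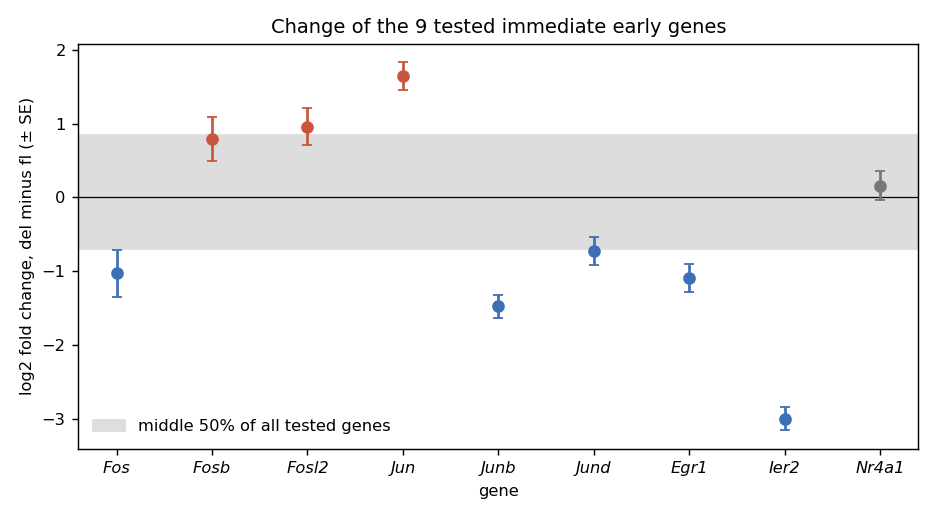
Log2 fold change of del minus fl with its standard error for the 9 tested genes, red for higher, blue for lower and grey for not called, over a band holding the middle 50% of all tested genes (-0.70 to 0.84). Ier2, Junb, Egr1, Fos and Jund lie below the band, Jun and Fosl2 above it, and Fosb and Nr4a1 inside it.

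The zinc finger gene Egr1 fell. It lies on chromosome 18 from 34861207 to 34864956 and was at 16.3, 13.9 and 15.7 CPM in fl and at 5.79, 7.58 and 8.11 CPM in del. The 3 libraries of each group agreed closely and the groups stood well apart, with a log2 fold change of -1.10 ± 0.19 (adjusted p = 7.36e-04, edgeR). The del values of Egr1 rested on 16 to 30 counts a library. Egr2, which in lymphocytes restrains activation (chr10:67534469-67542188), was at 1.03, 2.24 and 1.47 CPM in fl and at 1.05, 0.947 and 1.35 CPM in del. Its groups overlapped, and del replicate 2 had 2 counts (exact 95% Poisson interval 0.115 to 3.42 CPM). A difference was not detectable at this depth, with a log2 fold change of -0.51 when no filter on low counts was used (adjusted p = 0.433, edgeR).

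Ier2 showed the widest difference of the 9 tested genes. It encodes a short-lived nuclear protein and has a single exon (chr8:84661331-84662852). Its level was 180, 144 and 152 CPM in fl and 20, 22.3 and 17.8 CPM in del. The log2 fold change was -3.00 ± 0.16 (adjusted p = 9.66e-07, edgeR), so that del held 7.99-fold less, and only 2.85% of all tested genes fell as much or more. Nr4a1, the gene of the orphan nuclear receptor NUR77 that reports antigen receptor signals in lymphocytes (chr15:101253902-101274795), was at 9.29, 12.4 and 9.82 CPM in fl and at 11.9, 9.47 and 13.2 CPM in del. The groups overlapped, and the log2 fold change was 0.16 ± 0.20 (adjusted p = 0.507, edgeR).

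Ratios between related genes were taken within each library, so that library scaling cancels apart from the 0.5 CPM added to each value. They are not corrected for transcript length, and only their difference between the groups is read. The trend of fold change on transcript length, given below, was not removed from that difference. With the trend removed, the log2 fold changes of single genes were -0.77 for Fos, 0.18 for Fosl2, 1.63 for Jun and -0.35 for Jund. The trend's part in the ratios was not tested. Jun to Jund was 0.463, 0.362 and 0.322 in fl and 2.12, 2.19 and 1.72 in del, with all del ratios above all fl ratios. The mean log2 ratio was -1.40 ± 0.27 in fl and 1.00 ± 0.19 in del (SD, n = 3 libraries), a 5.29-fold shift (exact permutation p = 0.1, two-sided, the smallest that 3 against 3 can give). Junb to Jund was 1.11, 1.32 and 1.36 in fl and 1.04, 0.794 and 0.562 in del, without overlap, a log2 difference of -0.70 (exact permutation p = 0.1). Fos to Fosl2 was 3.40, 3.19 and 1.71 in fl and 0.857, 0.365 and 1.00 in del, a log2 difference of -1.96 (exact permutation p = 0.1). This difference was -2.08 with 0.1 CPM added in place of 0.5, and -1.62 with 2 CPM added. Fosb to Fosl2 overlapped between the groups, with a log2 difference of -0.18 (exact permutation p = 0.8). For Egr1 to Egr2 the groups overlapped too, with a log2 difference of -0.72 (exact permutation p = 0.2). After Benjamini-Hochberg adjustment over the 5 pairs p was 0.167 to 0.8, and 3 libraries against 3 cannot reach 0.05.

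**Figure D3:**
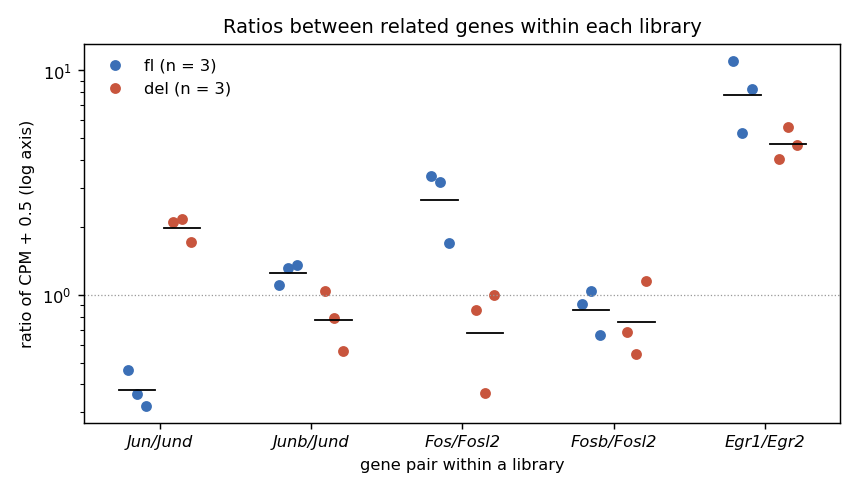
Ratio of CPM + 0.5 for 5 pairs of related genes within each of the 6 libraries on a log axis, fl in blue, del in red, bars at the geometric means (n = 3 libraries per group). Jun to Jund lies between 0.322 and 0.463 in fl and between 1.72 and 2.19 in del, and Fosb to Fosl2 overlaps.

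The mature microRNAs of the deleted cluster, which lies on chromosome 14, pair with mRNAs through bases 2 to 8 of their sequence. They are shown because their seeds define the sites searched for, with the seed in capitals, 5' to 3' (RefSeq, GRCm38.p6). miR-17-5p and miR-20a-5p share 1 seed, as do miR-19a-3p and miR-19b-3p.
miR-17-5p: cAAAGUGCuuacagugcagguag
miR-20a-5p: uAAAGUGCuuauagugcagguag
miR-18a-5p: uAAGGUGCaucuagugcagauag
miR-19a-3p: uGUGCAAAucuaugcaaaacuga
miR-19b-3p: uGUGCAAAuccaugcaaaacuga
miR-92a-3p: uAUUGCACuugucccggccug

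A 7-base match to these seeds was looked for in the longest GENCODE 3' UTR of each of the 10 genes. Of the 10, only Fosb, Fosl2 and Egr2 held one, against 35.7% of 9746 tested genes with a UTR that held at least 1 site of the 4 families. The matches stand in capitals with 10 bases on either side, from the transcript strand.
Fosb, miR-19a/b, chr7:19302793-19302799: ttttttgtatTTTGCACctgaccccgg
Fosl2, miR-18a, chr5:32153258-32153264: ccagggaccaGCACCTTtaagcactcc
Fosl2, miR-92a, chr5:32153786-32153792: ggcagtcaaaGTGCAATattattgaaa
Fosl2, miR-17/20a, chr5:32156204-32156210: gcactatgagGCACTTTtctatttatc
Fosl2, miR-18a, chr5:32157473-32157479: tcctttctggGCACCTTttgtccccta
Fosl2, miR-19a/b, chr5:32157670-32157676: gcctacaggaTTTGCACtaagaaaagc
Egr2, miR-17/20a, chr10:67541408-67541414: aactgatgtgGCACTTTaatggcttgg
Egr2, miR-92a, chr10:67541572-67541578: gagaatggaaGTGCAATgtcgggcagg

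Fosl2 thus held 5 matches and at least 1 of each family, in a UTR of 4653 nucleotides, the longest of the 10. Fosb held its match in a UTR of 2302 nucleotides. Both tested genes with a match rose in del, but neither stayed called in thinned libraries or with the length trend removed. Of the 7 tested genes without one, Jun rose, 5 fell and Nr4a1 was not called. Among all tested genes, 42.5% of the 3481 with a site and 27.6% of the 6265 without one were higher in del. The shares lower in del were 22.8% with a site and 37.6% without one. The genes with a site also had longer UTRs, with a median of 2387 against 952 nucleotides. A match is a stretch of letters and was not tested as a binding site.

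The AU-rich pentamer ATTTA, found in many short-lived mRNAs, was in the 3' UTRs of 9 of the 10 genes, against 71.7% of 9746 genes. Ier2, which fell most, had none in 755 nucleotides. The density was 5.52 per kilobase in Nr4a1, 4.91 in Fos, 4.12 in Junb, 3.24 in Jun, 2.50 in Egr2, 1.88 in Jund, 1.72 in Fosl2, 1.64 in Egr1 and 0.43 in Fosb. The median was 2.19 per kilobase over the 10 genes and 1.25 over all genes with a UTR. Genes of high and low density are found among those that rose and those that fell. The longer element TTATTTATT was in Fos and Fosl2, and in 8.23% of all genes.

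Promoter windows from 250 bases before to 50 after the RefSeq start (GRCm38.p6) were at hand for 8 of the genes (not Ier2 or Egr1). Those of Fos, Jun and Junb are shown because Jun rose while the others fell, with matches to the motifs searched in capitals, 5' to 3' on the strand of the gene. The motifs, searched on both strands, were the CRE core TGACG bound by CREB and ATF factors, the CRE-like octamer TGACNTCA, which holds the core where N is G, the AP-1 site TGANTCA, the EGR site GCGNGGGCG, the TATA element TATAAA and the CArG box of SRF.
Fos, chr12:85473640-85473939, plus strand: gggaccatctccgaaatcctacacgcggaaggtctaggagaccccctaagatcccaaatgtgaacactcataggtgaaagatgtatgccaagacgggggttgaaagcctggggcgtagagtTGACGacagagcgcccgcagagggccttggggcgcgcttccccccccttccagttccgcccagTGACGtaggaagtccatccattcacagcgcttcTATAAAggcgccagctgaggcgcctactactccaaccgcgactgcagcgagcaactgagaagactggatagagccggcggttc
Jun, chr4:95052173-95052472, minus strand: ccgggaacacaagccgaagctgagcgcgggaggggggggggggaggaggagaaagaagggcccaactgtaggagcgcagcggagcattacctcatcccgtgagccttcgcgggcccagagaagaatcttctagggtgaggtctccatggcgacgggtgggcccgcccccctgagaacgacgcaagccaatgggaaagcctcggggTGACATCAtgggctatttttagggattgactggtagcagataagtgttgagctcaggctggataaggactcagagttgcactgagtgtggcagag
Junb, chr8:84978699-84978998, minus strand: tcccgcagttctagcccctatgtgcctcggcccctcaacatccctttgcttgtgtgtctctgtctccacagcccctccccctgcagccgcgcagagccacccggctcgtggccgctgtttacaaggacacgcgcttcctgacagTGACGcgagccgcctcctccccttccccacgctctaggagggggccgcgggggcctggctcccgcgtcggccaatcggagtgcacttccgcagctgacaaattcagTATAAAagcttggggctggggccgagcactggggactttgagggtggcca

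In Fos a CRE core began 129 and another 66 bases before the start, with TATAAA 33 bases before it. Junb held 1 CRE core 106 bases before its annotated start, and its TATAAA lay at that start. Jun held neither, but had TGACATCA, a form of the octamer, 45 bases before the start. A CRE core was in 5 of the 8 genes (Fos, Fosb, Junb, Egr2 and Nr4a1), against 20.8% of all 32851 windows and 23% of genes with any window. The window of Jund, set by its RefSeq start, ends at chr8:70697788, before its GENCODE span, which begins at 70698949. A second start of Jund was thus not searched. The octamer was in Jun alone of the 8 and in 10% of genes. The EGR site was in Fosb, Fosl2 and Nr4a1 and in 6.27% of genes. A CArG box was in Egr2 alone, which has several windows, and in 1.81% of genes, and the AP-1 site was in none of the 8 and in 8.97% of genes. TATAAA was in Fos and Junb, both lower in del, and in 15.7% of genes. Jund, also lower, had no match, and Ier2 and Egr1, lower too, had no window. The genes with a CRE core included 1 that rose (Fosb), 2 that fell (Fos and Junb) and 1 not called (Nr4a1). The matches describe letters in these windows only.

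Transcript length moved with the fold change across the data. Tested genes were put into 5 bins of about equal size by their longest annotated transcript, and the bins' median log2 fold changes went from -0.67 for the shortest to 0.81 for the longest. Ier2, Jund and Junb lie in the shortest bin, with 1522, 1668 and 1809 nucleotides, while Fosl2, with 6537, lies in the longest. With a smooth trend on length removed, an alternative chosen after the data were seen, Ier2 (-2.56), Junb (-1.14), Egr1 (-1.53) and Jun stayed called. Jund and Fosl2, as given above, lost their calls, and so did Fos (-0.77, adjusted p = 0.0702) and Fosb (0.60, adjusted p = 0.113). The balance moved for all genes too: 5973 of 10260 were then called, 43.3% of them higher in del, in place of 6676 with 49.9% higher.

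**Figure D4:**
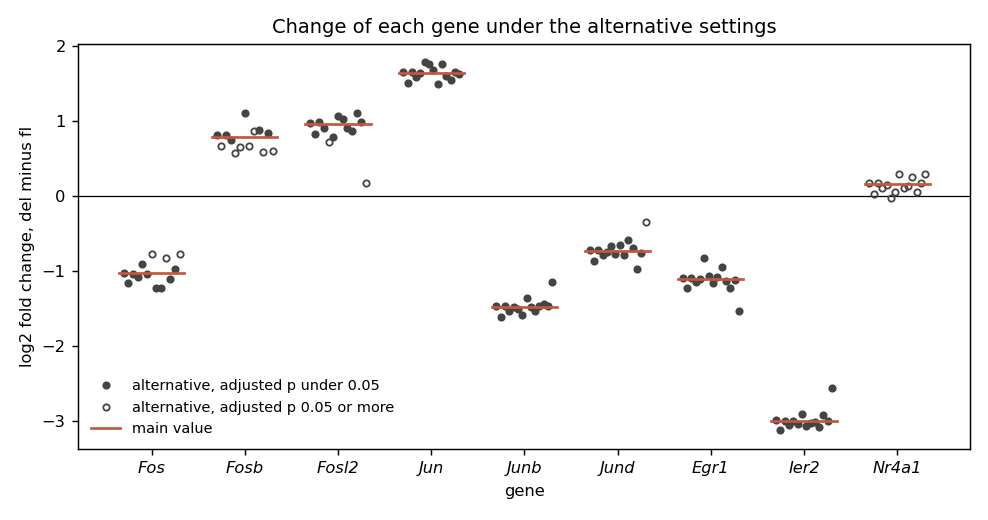
Log2 fold change of each of the 9 tested genes as reported (red line) and under each alternative setting (points, filled where the adjusted p was under 0.05). Ier2 stays between -3.12 and -2.56 and Jun between 1.49 and 1.78, while Fosb has 7 open points and Fosl2 drops to 0.18 in 1 setting.

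Partners of the AP-1 subunits went both ways. Of 11 tested from a list of 14, 3 rose and 5 fell, with a median of -0.46. Of all 10260 genes tested, 32.5% were higher and 32.6% lower in del. Batf3, which encodes a small JUN partner of dendritic cells and lymphocytes, had 349 counts over fl and 1 over del, a ratio of 137 in favour of fl (exact 95% interval 24.4 to 5424). Maff, a small MAF gene, was at 18.5 to 18.9 CPM in fl and 1.42 to 2.63 CPM in del, with a log2 fold change of -3.16 ± 0.22 (adjusted p = 4.32e-06, edgeR). Fosl1, which encodes the FOS family protein FRA1, was at 18.4 to 21.1 CPM in fl and 2.84 to 4.05 CPM in del (-2.51 ± 0.20, adjusted p = 8.79e-06, edgeR), so that it fell as Fos did. Jdp2, a repressor that pairs with JUN, was at 6.31, 1.34 and 1.32 CPM in fl, highest in replicate 1, and at 17.4, 13.7 and 24.3 CPM in del (2.61 ± 0.51, adjusted p = 0.00174, edgeR).

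Relatives of the EGR and NR4A genes also differed in direction. Of 5 tested genes from a list of 6, Egr3 and Nr4a2 rose, Egr4 fell and the EGR corepressor genes Nab1 and Nab2 were not called, with a median of -0.04. Among all tested genes the shares were 32.5% higher and 32.6% lower. Egr3 was at 2.52, 2.01 and 3.52 CPM in fl and at 8.69, 12.8 and 10.8 CPM in del, with a log2 fold change of 1.99 ± 0.27 (adjusted p = 1.73e-04, edgeR), the opposite direction to Egr1. Egr4 had 1 to 2 counts in each del library and was at 2.41 to 3.52 CPM in fl (-2.74 ± 0.47, adjusted p = 7.34e-04, edgeR). Nr4a2 was at 2.06 to 3.81 CPM in fl and 6.58 to 8.53 CPM in del (1.34 ± 0.28, adjusted p = 0.00211, edgeR), beside Nr4a1 with its 0.16. Whether Egr3 and Egr1, or Nr4a2 and Nr4a1, differ in their response was not tested.

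Other immediate early genes also went both ways: of 23 tested from a list of 25, 8 rose and 8 fell, with a median of -0.03. Both counts are near the shares of all tested genes, 32.5% higher and 32.6% lower. Klf4, a zinc finger factor gene, rose from 0.115 to 0.88 CPM in fl to 34.6 to 52.6 CPM in del, with a log2 fold change of 6.65 ± 0.36 (adjusted p = 9.54e-07, edgeR). Plk2, a polo-like kinase gene, had 5 counts over fl and was at 8.95 to 10.5 CPM in del. The antiproliferative genes Btg1 and Btg2 rose by 1.77 ± 0.12 and 2.50 ± 0.18 on the log2 scale.

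The kinases and factors that switch these genes on went both ways: of 23 tested, 8 rose and 5 fell, with a median of 0.06. Over all tested genes 32.5% were higher and 32.6% lower. Creb1, whose protein binds the CRE, was at 66.5, 45.8 and 58.4 CPM in fl and 186, 155 and 130 CPM in del (1.47 ± 0.19, adjusted p = 1.38e-04, edgeR). The SRF coactivator gene Mrtfa rose by 1.45 ± 0.21, while the ERK-activated kinase gene Rps6ka1 was at -1.49 ± 0.19 and the JNK gene Mapk8, whose protein phosphorylates JUN, at -0.99 ± 0.14 (adjusted p = 2.01e-04, edgeR), both lower in del. Among feedback inhibitors of ERK, 5 of 11 tested genes rose and 5 fell, with a median of -0.47. The shares over all tested genes, 32.5% and 32.6%, stand beside these counts too. The phosphatase gene Dusp7 rose by 1.89 ± 0.17 and Spred1 by 1.13 ± 0.14, whereas Dusp4 was at -1.25 ± 0.14 and Spred3 at -4.23 ± 0.49, both lower. Spred3 had 54 to 83 counts in each fl library and only 0 to 2 in each del library.

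Heat shock genes, which respond to handling stress together with immediate early genes, were given as a check on cell handling. Of 6 tested from a list of 9, Hspa1b rose (log2 fold change 3.07 ± 0.47, adjusted p = 3.93e-04, edgeR), Dnajb1 and Hspa8 fell and 3 were not called, among them Dnaja1 at 0.38 ± 0.17. Across all tested genes 32.5% were higher and 32.6% lower in del. The summed list was at 7188 to 10736 CPM in fl and 8076 to 11043 CPM in del. The part of the heat shock list in the immediate early genes was not tested.

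**Figure D5:**
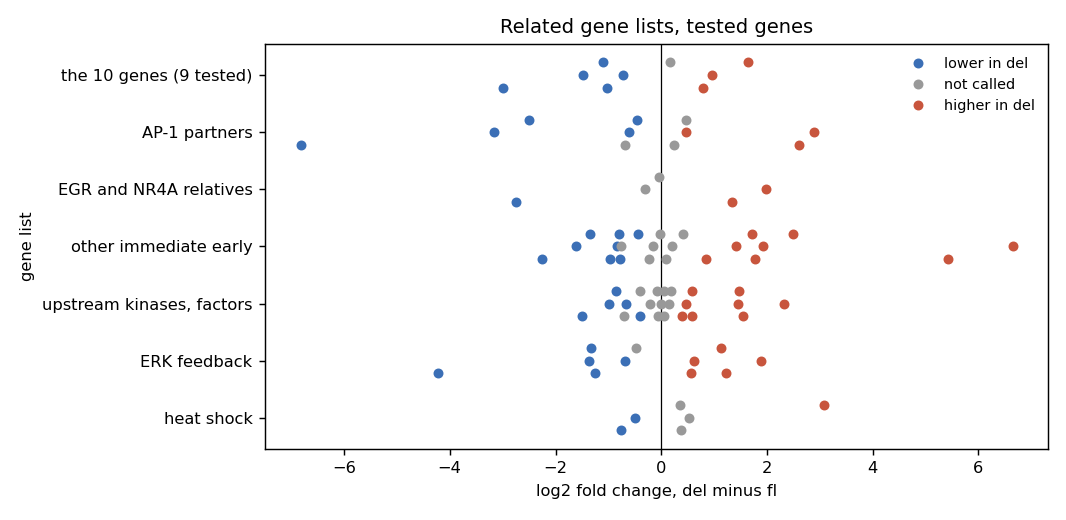
Log2 fold change of del minus fl for the tested genes of each list, red for higher, blue for lower and grey for not called, with points spread vertically for legibility. Every list has genes on both sides of 0, and the fitted value of Batf3 at the far left rests on 1 count in del.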

How the data were processed

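Poly(A) RNA of 6 libraries was measured by 3' RNA-seq. The authors deposited 1 table of raw counts by gene. STAR, HTSeq and mm10 appear among the tools and builds of the submitters' processing notes, with versions and settings not given in the sources used here. Gene numbers were matched to symbols in the RefSeq gene table of GRCm38, which matched 23969 of 24052. Genes were kept by filterByExpr, libraries scaled with TMM factors and groups compared with edgeR 4.0.16 (R 4.3.3), by the robust quasi-likelihood F test with group as the only term and Benjamini-Hochberg adjustment over 10260 genes. Standard errors were derived from F. A gene with 1 to 3 counts over a group is given as a ratio with an exact 95% interval, which covers counting error only, as PCR copies are not separate molecules. Only the main edgeR fit was tested on simulated data, in which far fewer genes changed than were called here. The other steps were not.

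The 10 genes and all lists were chosen with earlier results of these data known. Named genes were the 10, and up to 4 of each list by smallest adjusted p. Nab1, Prdx2, Hsp90aa1 and the single markers named (Blnk, Ebf1, Ms4a1, Fcer1g, Lyz2, Itgam, Mpo, Fn1, Lum, Cd2, Cd5, Lck, Cd3e) were chosen after their values were seen. A ranking of genes by likeness to Fos and Egr1 is not given, since the libraries form separate clusters. Ratios used CPM + 0.5 and exact permutation tests. 3' UTRs of at least 50 nucleotides came from GENCODE M21 (GRCm38). Alternatives were DESeq2 1.42.0 and its size factors, upper-quartile factors, other count filters, thinned libraries, each library left out, a replicate block, other pseudocounts and, added later, a length trend.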

Additional observations from a re-analysis of the deposited data

How the results depend on the processing

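Jun, Junb, Egr1 and Ier2 kept their direction and their call in all 14 alternatives, with log2 fold changes of 1.49 to 1.78, -1.61 to -1.14, -1.53 to -0.82 and -3.12 to -2.56. The count of genes higher in del went from 3 to 1 with a minimum of 10 CPM in 3 libraries, where only 6 of the genes were tested, to 1 in thinned libraries and to 1 with the length trend removed. The count of lower genes went from 5 to 3 with the length trend removed. With all libraries kept, the changes that lost their call were Fos with the length trend removed (-0.77), Fosb with upper-quartile factors (0.66), in thinned libraries (0.57) and with the length trend removed (0.60), Fosl2 in thinned libraries (0.72) and with the length trend removed (0.18), and Jund with the length trend removed (-0.35). Nr4a1, not called in any setting, turned to -0.02 in thinned libraries. For upper-quartile factors, thinning and the length trend the cause was not tested. With 1 library left out, Fos ranged from -1.23 to -0.77 and lost its call without fl replicate 2 or del replicate 2. Fosb ranged from 0.59 to 1.11 and lost it without fl replicate 1, fl replicate 3, del replicate 1 or del replicate 3. The log2 ratio of Fosb to Fosl2 ranged from -0.48 to 0.05, positive without del replicate 2. Upper-quartile factors moved the median of all genes by -0.13. Shared replicate numbers gave no clear sign of pairing. Deviations of same-numbered libraries from their group means correlated at 0.083, -0.039 and -0.020 over 10260 genes, and those of differently numbered libraries at -0.145 to 0.167. With 3 libraries a group this cannot exclude a pairing. With the replicate block, 3 of the genes were higher and 5 lower, and 6510 of all genes were called in place of 6676. Counts of 2 to 29 a library limit Egr2, and Fos and Fosb in del. In del, Egr1 (16 to 30 counts a library), Fosl2 (21 to 33) and Nr4a1 (20 to 49) were also at low counts. Fosb (20 to 45) and Fosl2 (29 to 43) were at low counts in fl too.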

Other observations

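The spread between libraries differed among the immediate early genes. The coefficient of variation over the 3 fl libraries ran from 8.17% to 32.9% for the 9 tested genes, with a median of 16% against 12.1% over all tested genes. In del it ran from 5.37% to 37.6%, with a median of 16.9% against 16.3%. Fos varied most in del (37.6%) and was near the top in fl (32.7%), where Fosb was at 32.9%, while Ier2 was at 11.9% in fl and 11.1% in del. Fosb in both groups and Fos in del were also at low counts, while Fos had 57 to 147 counts a library in fl. The share of counting error in the spread of these 2 FOS genes was not tested.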
